A study of Mus musculus with 4 samples.

Results

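Genes of the cytotoxic granule were compared between 2 kinds of memory-type CD8 T cells on 4 Affymetrix mouse expression arrays. The genes were 5 granzymes (Gzma, Gzmb, Gzmc, Gzmk and Gzmm), the perforin gene Prf1, and Nkg7, Srgn, Ctsw and Serpinb9. They were found by gene symbol in the platform annotation, which gave 12 of the 45037 tested probe sets, for 10 of 18193 genes. Prf1 and Serpinb9 had 2 probe sets each and the other 8 genes had 1. The cells were sorted from spleen of B6 mice without a genetic change and carried CD44 and CD122. The Ly49+ group (2 arrays), labelled CD8+ Treg, also carried Ly49, a family of receptors for MHC class I. The Ly49- group (2 arrays) did not, and was labelled as conventional memory cells. The labels used here give no age, no treatment and no number of animals, and whether replicates were separate mice is not stated. The p-values therefore cover just the variation among these 4 arrays, part or all of which may be technical. The series title names Helios (Ikzf2) and the stability of regulatory cells. The comparison asks how the expression of the populations differs, and here how the RNA of granule genes differs. The arrays read RNA, and protein and killing were not measured.

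Cytotoxic T cells kill by releasing granules onto a target cell. Perforin makes pores in the target's membrane, and granzymes, which are serine proteases, pass through and cleave proteins that drive cell death. Granzyme B cuts after acidic residues and activates caspases, while granzymes A and K are tryptases that cut after basic residues. In the granule these proteins are packed on serglycin, a proteoglycan, and Serpinb9 protects the killer cell from its own granzyme B. The granzyme genes lie in clusters. In the RefSeq annotation Gzma and Gzmk are neighbours on chromosome 13, and Gzmc and Gzmb are neighbours on chromosome 14.

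The promoter windows of Gzmk, Gzmb, Gzma and Prf1 are shown because these genes share a function while the sizes of their differences were unlike. All 4 were read lower in Ly49+ cells, Gzma and Prf1 without passing the test. The log2 difference was -2.19 for Gzmk and -0.078 for the brighter probe set of Prf1. Each window runs from 250 bases before to 50 bases after the annotated gene start (RefSeq, GRCm38.p6). It is written 5′ to 3′ on the strand of the gene. Capitals mark matches, on either strand, to TGTGGT (the core bound by Runx factors), GGTGTGA (T-box), TGANTCA (AP-1), TGACGT (CRE core), TTCNNNGAA (STAT) or TGGGAA (Ikaros family). None of these matches overlapped another in the 4 windows printed.
Gzmk, chr13:113180916-113181215, minus strand: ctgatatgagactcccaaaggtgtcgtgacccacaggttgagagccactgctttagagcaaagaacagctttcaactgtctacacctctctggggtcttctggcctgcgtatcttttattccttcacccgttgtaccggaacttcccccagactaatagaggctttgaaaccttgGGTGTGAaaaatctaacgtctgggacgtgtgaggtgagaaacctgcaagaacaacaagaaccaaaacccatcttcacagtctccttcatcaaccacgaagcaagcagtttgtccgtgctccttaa
Gzmb, chr14:56262285-56262584, minus strand: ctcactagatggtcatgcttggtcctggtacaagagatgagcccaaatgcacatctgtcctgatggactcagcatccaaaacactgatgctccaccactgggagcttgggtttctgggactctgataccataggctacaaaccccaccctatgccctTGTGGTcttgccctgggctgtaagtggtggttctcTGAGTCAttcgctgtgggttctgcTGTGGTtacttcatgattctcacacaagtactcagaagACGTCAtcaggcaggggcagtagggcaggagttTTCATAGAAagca
Gzma, chr13:113100932-113101231, minus strand: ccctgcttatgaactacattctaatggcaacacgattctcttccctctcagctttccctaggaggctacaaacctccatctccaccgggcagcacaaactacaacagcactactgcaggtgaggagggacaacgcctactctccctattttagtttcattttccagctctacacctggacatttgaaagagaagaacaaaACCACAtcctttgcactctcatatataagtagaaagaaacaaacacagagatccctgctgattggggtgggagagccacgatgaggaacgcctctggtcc
Prf1, chr10:61297586-61297885, plus strand: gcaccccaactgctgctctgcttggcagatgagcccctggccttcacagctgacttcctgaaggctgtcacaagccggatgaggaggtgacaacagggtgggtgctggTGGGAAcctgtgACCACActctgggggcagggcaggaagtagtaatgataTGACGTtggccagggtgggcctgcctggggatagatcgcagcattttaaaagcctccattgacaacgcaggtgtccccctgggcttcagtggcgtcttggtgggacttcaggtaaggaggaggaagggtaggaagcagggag

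Of the members, 9 genes had a window in the table, with 11 windows in all, and Ctsw had none. TGTGGT or its complement was present in 8 of the 11 windows and in 16.8% of all 32851 windows of the same length. Gzmb held it at bases 158 to 163 and 217 to 222 of its window, counted from the 5′ end, Gzma at 201 to 206 and Prf1 at 121 to 126. The Gzmk window held none, and its only match was GGTGTGA at bases 176 to 182. That motif was present in 3 of 11 member windows and in 3.98% of all windows. TGANTCA was present in 1 member window, that of Gzmb, and in 7.81% of all windows. TGACGT was present in 4 member windows (7.51% of all), TTCNNNGAA in 3 (8.30% of all) and TGGGAA in 2 (25.6% of all), those of Prf1 and Serpinb9. A match describes the letters of the window and is not evidence of binding, and the motifs were chosen after the values of the genes were known.

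The granzymes did not behave as a block. Gzmk and Gzmb fell in Ly49+ cells, Gzma was read lower without passing the test, and Gzmm and Gzmc did not pass. The genes of perforin, of the packaging proteins and of the granzyme B inhibitor did not pass either. Of the 12 member probe sets, 2 were lower, 0 were higher and 10 did not pass limma's test with Benjamini-Hochberg adjustment over all probe sets at 0.05. Of these 10, 2 had an unadjusted p under 0.05 (Gzma and the dimmer probe set of Prf1), and with the 2 that passed this made 4 of 12, against 13.3% of all probe sets. Over all probe sets, 1.19% passed, 0.429% as lower and 0.766% as higher. The median log2 difference of the members was -0.04 and that of all probe sets -0.03. Since these are bulk samples, fewer cells that express a gene and less RNA per cell cannot be told apart.

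Gzmk, which encodes granzyme K, had the lowest log2 difference of all 45037 probe sets. Its intensity was 168 and 211 on the Ly49+ arrays and 824 and 1016 on the Ly49- arrays. Both Ly49+ arrays lay far below both Ly49- arrays, and the spread within each group was small beside the gap. The means were 190 ± 29.8 and 920 ± 136 (SD, n = 2 arrays each). The log2 difference was -2.19 ± 0.15 (SE), with an unadjusted 95% interval from -2.53 to -1.84, or 4.55-fold lower on the log2(intensity + 16) scale used for all differences (limma adjusted p = 0.0027). Without Ly49- replicate 2 the adjusted p was 0.051, and over the 14 alternatives it ran from 1.4e-05 to 0.051. Within each array, Gzmk stood at percentile 48.6 and 51.2 of all probe sets in Ly49+ cells and at 67.7 and 70.5 in Ly49- cells. It moved from well above the middle of the array to near the middle. All 4 values were above 70.3, the highest intensity of any bacterial control probe set, used here as the limit of dim signal.

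Gzmb, which encodes granzyme B, was read at 989 and 1152 on the Ly49+ arrays and at 2066 and 3001 on the Ly49- arrays. The groups did not overlap, and the Ly49- arrays were farther apart than the Ly49+ arrays. The means were 1070 ± 116 and 2533 ± 661, a log2 difference of -1.21 ± 0.17 (SE; 95% interval -1.60 to -0.82), or 2.31-fold lower (limma adjusted p = 0.025). The adjusted p ran from 1.7e-04 to 0.12 over the 14 alternatives. Leaving out either Ly49+ array gave 0.12 (replicate 1) and 0.097 (replicate 2), and leaving out Ly49- replicate 2 gave 0.097. A fit with 1 common prior spread for all levels (no trend) gave 0.095, and robust eBayes gave 0.068. The percentile within the array was 70.3 and 72.3 in Ly49+ and 79.7 and 84.9 in Ly49- cells. Only 11 probe sets had a lower log2 difference.

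Gzma, which encodes granzyme A, was read at 2181 and 3116 in Ly49+ and at 3916 and 6509 in Ly49- cells. The groups did not overlap, but the values within a group differed more than for the other granzymes. The means were 2648 ± 661 and 5213 ± 1834, a log2 difference of -0.95 ± 0.24 (SE; 95% interval -1.52 to -0.38). It did not pass limma's test (adjusted p = 0.16), although only 37 probe sets had a lower log2 difference. Over the 14 alternatives the limma adjusted p of Gzma ran from 1.5e-04, with the replicate number as a block, to 0.48, with robust eBayes. It passed with that block alone, and the labels do not pair arrays of one number. Its percentile was 80.8 and 85.5 in Ly49+ and 87.9 and 93.7 in Ly49- cells.

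**Figure D1:**
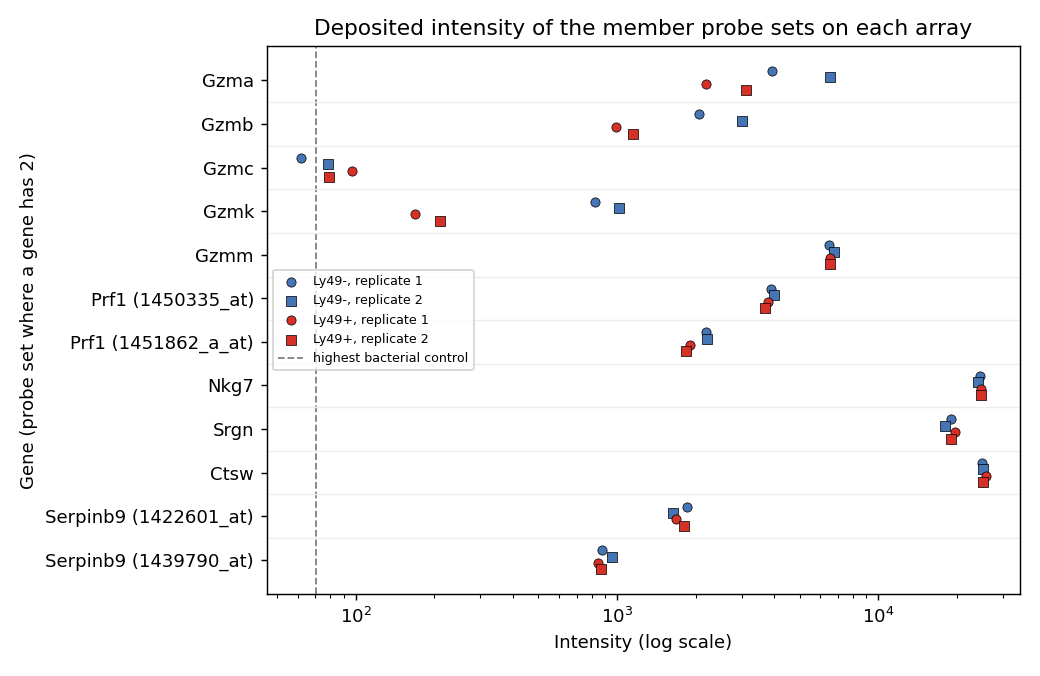
Deposited intensity (log scale) of each member probe set on the 4 arrays, Ly49- in blue and Ly49+ in red, replicate 1 as circles and replicate 2 as squares. The dashed line is the highest bacterial control (70.3). The red points lie left of the blue points for Gzmk, Gzmb and Gzma, and the points of Nkg7, Srgn, Ctsw and Gzmm lie almost on top of each other.

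The replicate 2 array read higher than the replicate 1 array in both groups for each of Gzma, Gzmb and Gzmk. For Gzma the gap between the 2 arrays was 0.51 on the log2 scale in Ly49+ cells and 0.73 in Ly49- cells. For Gzmb it was 0.22 and 0.54, and for Gzmk 0.30 and 0.30. These 3 members exceeded 0.2 in both groups, as did 1.19% of all probe sets. The labels do not say that arrays of one number share a mouse or a day. Between arrays of the same number, the log2 difference of Gzmk was -2.19 and -2.19, that of Gzmb -1.05 and -1.37, and that of Gzma -0.84 and -1.06.

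Gzmm, which encodes granzyme M, a protease that cuts after methionine and leucine and is known from NK cells, was read at 6556 and 6558 in Ly49+ and at 6453 and 6748 in Ly49- cells. The Ly49+ arrays lay inside the range of the Ly49- arrays. Its log2 difference was -0.0092, with a 95% interval from -0.12 to 0.098 (adjusted p = 0.96). Gzmc, which encodes granzyme C, a protease seen in strongly stimulated killer cells, was read at 96.7 and 79.0 in Ly49+ and at 61.7 and 78.6 in Ly49- cells. The nearest arrays of the groups were almost equal, and the mean of 70.1 in Ly49- cells did not reach the dim limit of 70.3, so the difference is given no size (adjusted p = 0.47). The other granzymes of the chromosome 14 cluster, Gzmd, Gzme, Gzmf, Gzmg and Gzmn, had dim probe sets in both groups, and 0 of 5 passed (limma, 0 at an unadjusted p under 0.05).

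Prf1, the perforin gene, was read by 2 probe sets. The brighter probe set, 1450335_at, gave 3774 and 3669 in Ly49+ and 3888 and 3971 in Ly49- cells. The Ly49+ arrays were lower by a small margin, with a log2 difference of -0.078 and a 95% interval from -0.20 to 0.044 (adjusted p = 0.57). The other, 1451862_a_at, gave 1905 and 1829 against 2189 and 2206, a log2 difference of -0.23 with an interval from -0.38 to -0.085 (unadjusted p = 0.0075, adjusted p = 0.18). Both probe sets were lower without overlap and neither passed, so a fall of Prf1 RNA was not shown. The lower end of the unadjusted 95% interval lay at a 1.15-fold lower level for the brighter one and at 1.30-fold for the other. For Gzmk, the lowest of all probe sets, the end nearest to no difference lay at 3.58-fold lower. These intervals cover just the variation among the 4 arrays and are not firm bounds.

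**Figure D2:**
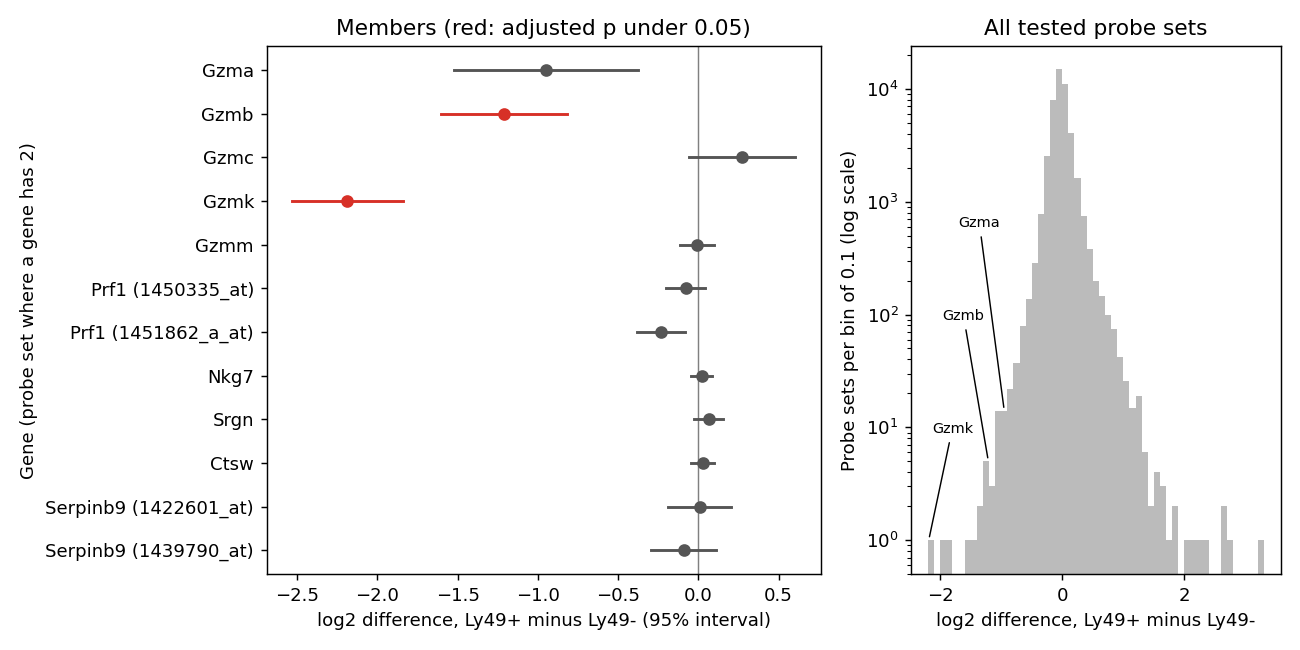
Left, log2 difference (Ly49+ minus Ly49-) of each member probe set with its unadjusted 95% interval, red where the adjusted p was under 0.05. Right, the number of all 45037 probe sets per bin of log2 difference, on a log scale. Gzmk lies at the far left end of the distribution at -2.19, Gzmb at -1.21 and Gzma at -0.95.

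The genes of the proteins that hold or accompany granzymes in the granule had bright probe sets with small differences. Srgn, which encodes the serglycin core protein, was read at 19707 and 18961 in Ly49+ and at 18982 and 18017 in Ly49- cells, and the groups overlapped. Its log2 difference was 0.064 with a 95% interval from -0.028 to 0.16 (adjusted p = 0.53). Nkg7, which encodes a granule membrane protein needed for degranulation, was read at 24621 and 24620 in Ly49+ and at 24517 and 24043 in Ly49- cells, a log2 difference of 0.020 (95% interval -0.047 to 0.087, adjusted p = 0.81). Ctsw, which encodes cathepsin W, a cysteine protease of T and NK cells, was read at 25861 and 25090 in Ly49+ and at 24967 and 25057 in Ly49- cells, a log2 difference of 0.026 (95% interval -0.043 to 0.096, adjusted p = 0.75). For Nkg7 and Ctsw the arrays of the groups did not overlap, by a narrow margin. Among all members, 9 of 12 probe sets had no overlap, 6 of them lower in Ly49+ cells. Among all probe sets 44.9% had none, and 29.1% had none and were lower.

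All 3 of these genes stood above percentile 99.2 on every array, so their probe sets were among the brightest in both populations. Brightness depends on the probe as well as on the RNA, so these percentiles do not order genes by amount of transcript. Gzmm stood between percentile 93.4 and 94.0, and Prf1 between 87.6 and 88.5 for its brighter probe set and between 78.5 and 80.8 for the other. Gzmc stood between 32.3 and 40.6.

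**Figure D3:**
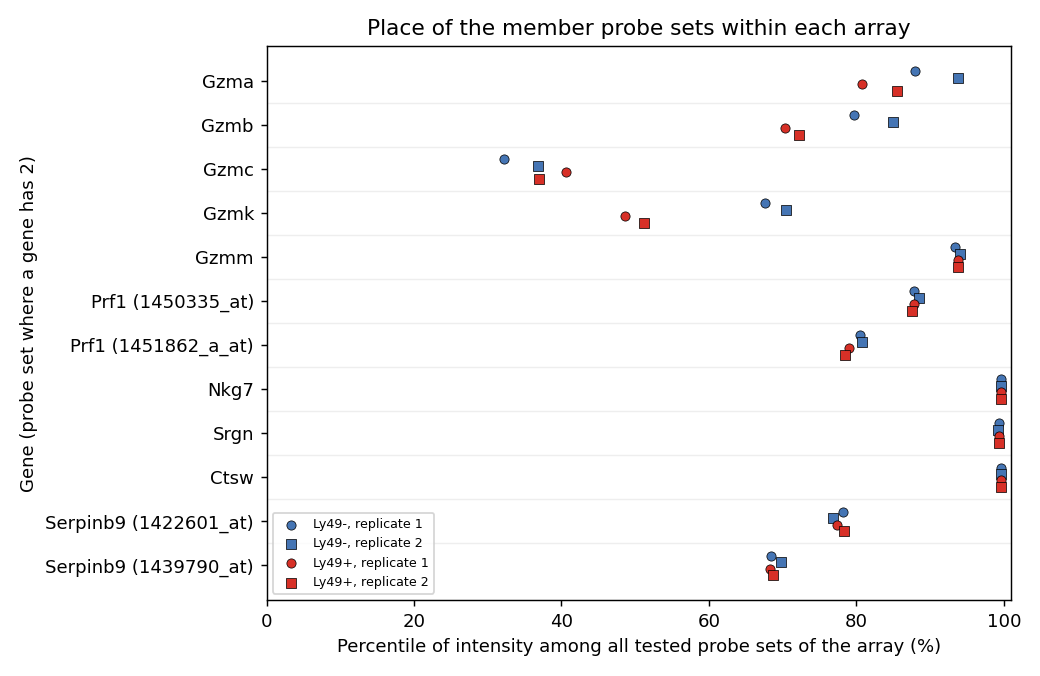
Percentile of each member probe set among the 45037 probe sets of its array, with Ly49- in blue, Ly49+ in red, replicate 1 as circles and replicate 2 as squares. Nkg7, Srgn and Ctsw sit above 99.2 on all 4 arrays, while Gzmk sits at 48.6 and 51.2 in Ly49+ and at 67.7 and 70.5 in Ly49- cells.

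Serpinb9, which encodes the inhibitor of granzyme B, was read by 2 probe sets that did not pass. Probe set 1422601_at gave 1686 and 1808 in Ly49+ and 1849 and 1632 in Ly49- cells, with Ly49+ values inside the Ly49- range and a log2 difference of 0.0072 (95% interval -0.19 to 0.21, adjusted p = 0.99). Probe set 1439790_at gave 844 and 870 against 873 and 955, a log2 difference of -0.090 (95% interval -0.29 to 0.11, adjusted p = 0.71). The level of Gzmb, whose product this inhibitor blocks, fell on the same arrays.

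The genes that lie beside the granzymes were read in the same way. Of the 10 nearest protein-coding genes around Gzma and Gzmk (5 on each side), 8 were measured and 0 passed (limma, smallest adjusted p = 0.26, 2 at an unadjusted p under 0.05), with log2 differences from -0.29 to 0.21. Around Gzmb and Gzmc, 5 of the 10 nearest genes are the dim granzymes Gzmd, Gzme, Gzmf, Gzmg and Gzmn already counted. The other 5 were measured and 0 passed (limma, smallest adjusted p = 0.24, 1 at an unadjusted p under 0.05), with log2 differences from -0.35 to -0.0036. Of the neighbours other than granzymes, 3 of 8 (Gpx8, Esm1 and Hspb3) and 2 of 5 (Rnf17 and Atp12a) were dim in both groups. The differences of these dim genes carry little information. The lowest log2 difference and the smallest adjusted p were those of Esm1 around Gzma and Gzmk, and of Rnf17 around Gzmb and Gzmc.

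Of 73 measured genes that make, activate, move or restrain granules, 2 were higher in Ly49+ cells, 0 were lower and 71 did not pass, while 14 had an unadjusted limma p under 0.05, as did 15.5% of all genes. For all 18193 genes, each read by its brightest probe set, 1.67% passed, 0.973% as higher and 0.693% as lower. The median log2 difference was -0.0032 for the 73 genes and -0.04 for all genes. Ctsh, which encodes the lysosomal protease cathepsin H, was read at 698 and 802 in Ly49+ and at 466 and 498 in Ly49- cells, 1.54-fold higher (log2 difference 0.62 ± 0.10 SE, adjusted p = 0.049). Leaving out any 1 array ended the call (adjusted p from 0.11 to 0.27), as did a fit with no trend (0.084) and a pseudocount of 64 (0.063), and its adjusted p ran from 0.0077 to 0.27 over all alternatives. Cst3, which encodes the cathepsin inhibitor cystatin C, was read at 16080 ± 25.4 and 13575 ± 375 (mean ± SD, n = 2 each), 1.18-fold higher (log2 difference 0.24 ± 0.036 SE, adjusted p = 0.031). Leaving out any 1 array ended this call too (adjusted p from 0.086 to 0.23), as did a fit with no trend (0.23), and its adjusted p ran from 0.0067 to 0.23 over all alternatives. Both are also strongly expressed in macrophages. All 13 measured macrophage and monocyte markers were read higher on the Ly49+ arrays, and 12 passed limma's test. The part of such cells in these values was not tested.

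Among 8 measured lysosomal proteases, 1 passed and the median was 0.034. An unadjusted limma p under 0.05 was reached by 3 of 8 (Ctsh, Lgmn and Ctsb, all higher), against 15.5% of all genes. Lgmn, which encodes legumain, was read at 487 and 546 against 260 and 346 (log2 difference 0.75, adjusted p = 0.080). Ctsb, which encodes cathepsin B, differed by 0.15 (adjusted p = 0.21). For Ctsc, which encodes the protease that activates granzymes by removing their N-terminal dipeptide, the log2 difference was 0.053 (adjusted p = 0.77). Protease inhibitors had 6 measured members, of which 1 passed (limma, 1 at an unadjusted p under 0.05), with a median of -0.064. Cst7, which encodes cystatin F, an inhibitor of cathepsin C in killer cells, differed by -0.062 (adjusted p = 0.61).

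Granule transport and exocytosis had 24 measured genes. None passed limma's test (5 at an unadjusted p under 0.05), and the median was -0.030. Sytl2, which encodes a partner of Rab27a, differed by 0.31 (adjusted p = 0.092) and Syt11, a synaptotagmin gene, by -0.26 (adjusted p = 0.21). Unc13d, which primes granules for fusion, differed by -0.025 (adjusted p = 0.89). Rab27a, the GTPase that docks granules, was read at 374 and 398 in Ly49+ cells and at 844 and 399 in Ly49- cells, where replicate 1 of the Ly49- group stood apart from the other 3 arrays (adjusted p = 0.46).

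None of the 7 measured lysosomal membrane genes passed (1 at an unadjusted p under 0.05, median 0.0091), and Lamp1, the usual marker of degranulation, differed by 0.0086. None of the 11 measured genes that build the glycosaminoglycan chains of serglycin passed (1 at an unadjusted p under 0.05, median 0.00093), with the chondroitin synthase gene Chsy1 at 0.25 (adjusted p = 0.089). Of 12 transcription factors known for granule genes, 0 passed (3 at an unadjusted limma p under 0.05) and the median was -0.065. Notch1, a receptor whose cleaved form acts on Gzmb, differed by -0.31 (adjusted p = 0.073), Eomes by 0.14 (0.24) and Tbx21, which encodes T-bet, by 0.096 (0.41).

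**Figure D4:**
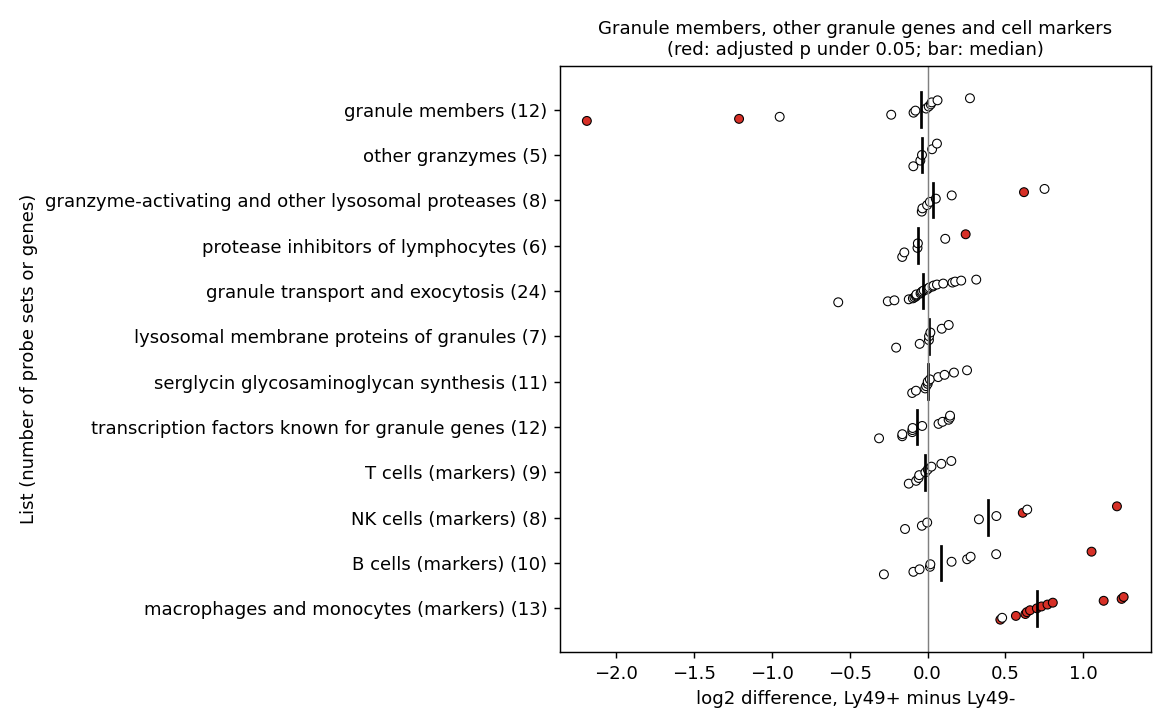
Log2 difference (Ly49+ minus Ly49-) of the 12 member probe sets, of the measured genes of 7 lists of other granule genes, and of 4 lists of cell markers, 1 point each, with the median as a bar and red points where the adjusted p was under 0.05. Gzmk, Gzmb and Gzma stand apart on the left at -2.19, -1.21 and -0.95, and 12 of 13 macrophage and monocyte markers are red on the right.

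Klra7, the Ly49 gene given here, was read at 8932 in Ly49+ and at 905 in Ly49- cells. Its direction matched the sort, and its Ly49- level was above the dim limit of 70.3. The T-cell genes Cd3e and Cd8a were bright in both groups. Of 9 T-cell markers, 0 passed (limma, 1 at an unadjusted p under 0.05), and their summed intensity was 124962 to 127944 on Ly49+ and 124940 to 128406 on Ly49- arrays. Of 13 markers of macrophages and monocytes, 12 passed limma's test as higher, against 0.973% of all genes. All 13 were read higher, with log2 differences of 0.47 or more, a median of 0.70 and an unadjusted limma p under 0.05. Their sums were 25326 to 28201 on Ly49+ and 16239 to 16316 on Ly49- arrays. Among NK-cell markers, 2 of 8 (Tyrobp and Fcer1g) were higher, with sums of 7892 to 8152 against 4879 to 4991. In all, 4 of 8 had an unadjusted limma p under 0.05, and the median log2 difference was 0.39. Itga2 (log2 difference 0.64, limma adjusted p = 0.075) and Fcgr3 (0.33 and 0.12) were read higher in Ly49+ cells without passing. The defining NK gene Ncr1 was dim in both groups at 39.8 and 39.9, as were Klrb1b at 45.6 and 47.1 and Itgam at 33.0 and 38.1. Of the other lists, 1 of 10 B-cell markers (Cd22) and 3 of 11 dendritic-cell markers (Xcr1, H2-Aa and H2-Ab1) were higher, and 1 of 7 neutrophil markers (S100a9) was lower. The 8 other dendritic-cell markers did not pass. Among them Flt3 (log2 difference 0.40) and Zbtb46 (0.43) were read higher, and Bst2 (-0.32) and Itgax (-0.17) lower. An unadjusted limma p under 0.05 was reached by 7 of 11 dendritic-cell, 3 of 10 B-cell and 2 of 7 neutrophil markers. The median log2 difference of the dendritic-cell markers was 0.22. None of 4 CD4 T-cell, 11 mast-cell and basophil or 3 red-cell markers passed (0, 2 and 1 at an unadjusted limma p under 0.05). Some markers of other cell types were bright in both groups. Ighm had means of 14015 in Ly49+ and 14929 in Ly49- cells, C1qb 4572 and 2930, and Csf1r 4000 and 2691. Others were dim in both, such as Pax5 at 46.2 and 45.5. The part of other cell types in the differences of Gzmk and Gzmb was not tested. Array medians ran from 188.5 to 190.4, and precision is limited by having 2 arrays a group.

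For Gzmk, Gzmb and Gzma, the genes most like them over the 4 arrays were sought among 12696 genes whose mean over all 4 arrays was above the dim limit, by the distance between deviations from the 4-array mean on the log2 scale. The gene nearest to Gzmk was Klrg1, a receptor of terminally differentiated killer cells (distance 0.47, log2 difference -1.92), followed by Tmprss13 and Gzmb (0.99). The nearest to Gzmb were Igkv6-20, Dsg2 (0.23) and Stc2 (0.24), and the nearest to Gzma were Igkv6-20, Gzmb (0.36) and Ptpn13. Tmprss13 (mean 51.2 in Ly49+ and 179 in Ly49- cells), Igkv6-20 (44.3 and 113) and Ptpn13 (55.5 and 128) were dim in Ly49+ cells and entered the search only through their Ly49- values, so no distance is given for them. With 4 arrays, this likeness is a description of the values alone.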

How the data were processed

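The authors deposited linear intensities per probe set for 4 arrays (biotin-labelled cRNA from total RNA, per the labels' protocols). They ran from 8.32 to 43959, and array quartiles differed by at most 0.042 on the log2 scale. The background correction, normalization and probe summary were not stated in the labels or files used here. Groups and replicate numbers came from the sample titles. Gene names came from the 2016 platform annotation, and 0 of 34741 symbols matched by gene ID to RefSeq changed.

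Values were transformed to log2(intensity + 16). The tests ran on all 45037 probe sets other than the 64 controls, in limma 3.58.1 (R 4.3.3; lmFit on group alone, eBayes with a trend, residual degrees of freedom 2, prior 5.05). Benjamini-Hochberg adjusted p under 0.05 counted as passed. The pseudocount makes fold changes of dim genes too small. An exact permutation test of 2 against 2 arrays cannot go below p = 0.33. For other genes, the brightest probe set with 1 symbol was read, from the same test. Tables were handled with the data.table package (version 1.17.8). The script was tested on simulated data.

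Every member was described with all its probe sets. Of other granule lists, genes that passed and some with small p were named, with further genes named for their role after their values were seen. The members and lists were chosen with earlier results of these data known. Alternatives were quantile normalization, pseudocounts of 1 and 64, brighter probe sets alone, 1 or averaged probe sets per gene, no trend, a robust spread, a replicate block, a threshold of 0.1 and leaving out each array. The threshold of 0.1 read the main fit at a looser cut, so a probe set that passed the main test could not fail it.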

Additional observations from a re-analysis of the deposited data

How the results depend on the processing

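Gzmk was lower under all 14 alternatives (log2 difference -2.34 to -1.95) and passed in 13. Gzmb was lower in all 14 (-1.48 to -0.94) and passed in 9. Gzma was lower in all 14 (-1.31 to -0.58) and passed only with the replicate number as a block (adjusted p = 1.5e-04). The labels do not pair arrays of one number, and the deviations of same-numbered arrays from their group means correlated at 0.24 over all probe sets and at 0.36 over those above the median brightness, which with 2 pairs does not settle it. The block called 1415 probe sets in place of 538, 3 members in place of 2 and 6 other granule genes in place of 2. The count over all probe sets was 233 without a trend, 1033 at a threshold of 0.1 and 31 to 104 when 1 array was left out. The member count was 1 without a trend, 1 with a robust spread and 0 to 2 when 1 array was left out, where without Ly49- replicate 2 limma called 0 members and 5 had an unadjusted p under 0.05. The count of other granule genes was 1 with a pseudocount of 64, 6 with the brightest probe set per gene, 5 with averaged probe sets and 6 at a threshold of 0.1, where 4.0%, 2.94% and 3.09% of all genes passed (3.86% with the block). With the brightest probe set per gene, 352 genes were called higher and 376 lower, in place of 177 and 126. It was 0 without a trend (11 at an unadjusted limma p under 0.05) and 0 when any 1 array was left out (7 to 18 at an unadjusted p under 0.05). The sign of values near 0 turned for Gzmm with quantile normalization (0.0064) and without Ly49- replicate 2 (0.023). It turned for Serpinb9 (1422601_at) with averaged probe sets (-0.041), and leaving out 1 array moved that value between -0.082 and 0.096, with -0.043 without Ly49+ replicate 2. None of these passed. The cause of these changes was not tested. A group left with 1 array took its spread from the other group. Probe sets near or below 70.3, such as that of Gzmc, have too little signal for a size.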
